A study of Mus musculus with 18 samples.

Results

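The 9 genes that the count tables list by symbol and that are described here are Clec4a1, Clec4a2, Clec4a3, Clec4d, Clec4e, Clec4n, Clec5a, Clec7a and Clec12a. They encode C-type lectin receptors of myeloid cells, and they are 9 of the 24059 gene symbols in the tables. They were chosen by name, as rows whose symbol equals one of the 9, and rows of the same symbol were summed. Counts were available for 18 RNA-seq libraries of macrophages grown from the bone marrow of C57BL/6J mice, in 6 groups of 3. The cells had been differentiated for 7 days in medium with L929-conditioned supernatant, and the labels name no altered gene in any group.

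The first table held untreated cells and cells given lipopolysaccharide (LPS), the cell wall lipid of Gram-negative bacteria that signals through TLR4. In the second table all 4 groups received LPS. In 1 group LPS was given alone, and another had first received reconstituted high-density lipoprotein (rHDL) for 20 h on day 8. The rHDL (CSL111) combines APOA1 with phosphatidylcholine from soybean at 1:150. The remaining groups were loaded with cholesterol from liposomes of POPC and cholesterol before LPS, without or with rHDL in between. Neither an LPS dose nor its duration is given in the labels, which also do not say whether replicates were separate mice or cultures, so p-values measure the spread between these libraries, which may be technical. The series title sets the question as the effects of HDL on inflammation in macrophages.

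C-type lectin receptors are surface proteins whose carbohydrate-recognition fold binds sugars and lipids of fungi, mycobacteria and dying cells. The activating ones signal through the tyrosine kinase Syk, either by a motif in their own tail, as Dectin-1 (Clec7a) does, or through a partner with an activation motif. Mincle (Clec4e), MCL (Clec4d) and Dectin-2 (Clec4n) use the Fc receptor gamma chain Fcer1g as that partner, and MDL-1 (Clec5a) uses DAP12 (Tyrobp). Syk then feeds the complex of Card9, Bcl10 and Malt1, which activates NF-kappaB. DCIR (Clec4a2) and MICL (Clec12a) carry inhibitory motifs that recruit phosphatases such as Ptpn6. Clec4a1 and Clec4a3 are close relatives of DCIR.

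The promoters of Clec4e and Clec4a1 are shown because these genes had the most pronounced changes with LPS and with rHDL, respectively. Each is the 250 bases before the RefSeq start site on GRCm38.p6, 5' to 3' on the gene's strand. Clec4e lies on the minus strand, with its promoter at chr6:123289872-123290121, and Clec4a1 on the plus strand, with its promoter at chr6:122921598-122921847. Capitals mark matches to the motifs named after the sequences.
Clec4e: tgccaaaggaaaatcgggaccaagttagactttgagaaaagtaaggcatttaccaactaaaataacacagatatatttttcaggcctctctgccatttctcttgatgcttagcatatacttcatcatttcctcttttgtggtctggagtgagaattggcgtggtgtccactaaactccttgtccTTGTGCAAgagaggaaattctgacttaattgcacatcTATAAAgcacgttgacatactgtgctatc
Clec4a1: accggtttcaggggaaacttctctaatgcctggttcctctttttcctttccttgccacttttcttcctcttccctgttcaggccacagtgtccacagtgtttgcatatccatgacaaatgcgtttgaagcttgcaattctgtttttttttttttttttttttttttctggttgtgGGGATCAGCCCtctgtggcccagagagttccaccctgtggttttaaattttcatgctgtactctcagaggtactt
Motifs of 4 kinds were searched on both strands: GGG and CC parted by any 5 bases for NF-kappaB, TTGCNNAA for C/EBP, TGANTCA for AP-1 and TATAAA for a TATA box. In Clec4e the capitals are a C/EBP match at -66 and a TATA match at -29, counted from the start site. In Clec4a1 they are 2 overlapping NF-kappaB matches, at -75 and -74. Of 32851 promoter windows of RefSeq, 45.8% held the NF-kappaB letters, 9.56% the C/EBP letters, 6.75% the AP-1 letters and 12.4% the TATA letters. The Clec12a window held a C/EBP match at -140 and an AP-1 match at -213, and neither window of Clec7a held any of the motifs. A match is only a description of these letters.

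Only 4 of the 9 receptors could be measured well. The deposited tables have 1 row per transcript, and 6697 of the 6698 rows that have no exon base to themselves held 0 counts in every library, which shows that reads overlapping more than 1 row were left out. Clec4a1, Clec4e, Clec7a and Clec12a have 1 row and 6 exons each, with every exon base to themselves, and received 20286 to 225876 reads in the first table and 21029 to 497428 reads in the other. Of all stretches of 50 bases in their transcripts, Clec4a1, Clec4e and Clec7a shared 0% with another gene and Clec12a 0.402%. All 9 genes lie on chromosome 6 of mm10. Clec4a1 spans 122921848 to 122934619 on the plus strand and Clec4e 123281789 to 123289871 on the minus strand. Clec12a spans 129350244 to 129365303 on the plus strand and Clec7a 129461591 to 129472777 on the minus strand.

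The other 5 receptors have several rows each, and their counts cannot be read as expression. Clec4a3 spans 122952515 to 122969878, Clec4a2 123122690 to 123143999, Clec4n 123229843 to 123247024 and Clec4d 123262107 to 123275268, all on the plus strand between Clec4a1 and Clec4e, and Clec5a lies apart at 40574898 to 40585805 on the minus strand. Of the exon bases, Clec4a3 had 14.1% to itself, Clec4a2 5.16%, Clec5a 1.96%, Clec4d 0.225% and Clec4n 0%. Clec4n, the gene of Dectin-2, was at 0 counts in all 18 libraries, and Clec4d, the gene of MCL, had 4 counts in the first table and 11 in the other. Clec5a had 1, 0 and 0 counts in untreated cells and 3, 3 and 2 after LPS. In the second table it had 0, 0 and 0 counts with LPS alone, 0, 0 and 1 with rHDL, 3, 3 and 1 with loading, and 3, 1 and 2 with loading and rHDL. Clec4a2, the gene of DCIR, had 8, 5 and 6 counts in untreated cells and 1, 1 and 0 after LPS, and 5 counts in the whole second table. Clec4a3 had 12, 14 and 12 counts in untreated cells against 6, 4 and 10 after LPS, and passed the filter on low counts in the first table only. Filtered in that way, 5 of the 9 receptors entered the tests of the first table and 4 those of the second.

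**Figure D1:**
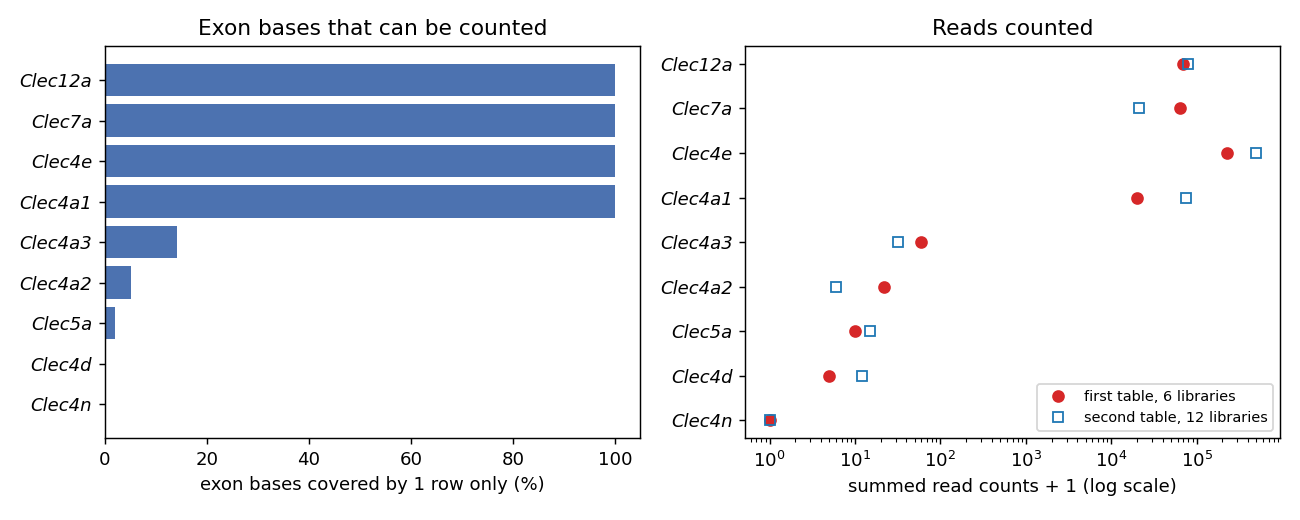
Share of each receptor's exon bases (%) covered by only 1 row of the count tables (left, bars) and the reads counted in each table on a log scale, plus 1 (right, circles for the 6 libraries of the first table, squares for the 12 of the second). Clec12a, Clec7a, Clec4e and Clec4a1 stand at 100% and 20286 reads or more, and the other 5 receptors at 14.1% or less and 58 reads or fewer.

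The labelled cell type was checked against marker genes. Total counts per library ran from 11450243 to 16835472 in the first table and from 9464916 to 15607889 in the second. The summed level of macrophage markers, in CPM, read counts scaled to library size with TMM factors, ran from 9397 to 31941 over the 18 libraries. Itgam was at 0, and it has only 0.0641% of its exon bases to itself. Lymphoid markers summed to at most 0.589 CPM. Other sets were not near 0. Stromal and endothelial markers summed to between 130.9 and 227.7 CPM. In untreated cells Vwf and Kdr alone gave 134.01 to 158.45 CPM of a sum of 134.22 to 158.78 CPM. Col1a1, Col1a2 and Lum were at 0 there. Mast cell, erythroid and megakaryocyte markers summed to between 14.3 and 101.7 CPM. In untreated cells Pf4 and Ppbp alone gave 13.9 to 30.0 CPM of a sum of 14.3 to 30.4 CPM, and Mcpt4 was at 0 in every group. Neutrophil markers ran from 3.24 CPM, with rHDL before LPS, to 104.7 CPM, in untreated cells. Dendritic cell markers summed to between 355 and 1209 CPM, mostly from the few of the 10 listed that passed the filter on low counts: Xcr1, Itgax and Bst2, with Ccr7 in the second table. Itgax and Bst2 are also expressed by macrophages. Clec9a was at 0 in every group, but it has no exon base of its own.

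Relative to the other genes, LPS raised 3 of the 5 receptors tested and lowered none. The background was high, since 72.9% of the 9576 genes tested were called at an adjusted p under 0.05, 35.3% higher and 37.6% lower, and in 36.8% and 39.4% the groups did not overlap, higher and lower. Clec4e, which encodes the receptor for mycobacterial cord factor, had 122, 120 and 183 CPM in untreated cells and 5890, 5929 and 6359 CPM after LPS. The means were 142 ± 36.2 and 6059 ± 260 CPM (SD, n = 3). Every LPS library lay far above every untreated one, and the log2 fold change was 5.42 ± 0.18 (SE), with an edgeR adjusted p of 4.87e-10.

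Clec12a, the inhibitory receptor for uric acid crystals, rose less. It had 575, 603 and 546 CPM in untreated cells and 869, 1049 and 1001 CPM after LPS, without overlap, and the edgeR log2 fold change was 0.76 ± 0.09 (adjusted p = 1.52e-05). Clec4a1 had 187, 163 and 221 CPM against 238, 230 and 328 CPM, a narrow gap between groups, with a log2 fold change of 0.48 ± 0.14 (edgeR adjusted p = 0.0112). That call was lost without untreated replicate 2 (adjusted p = 0.0521) or without LPS replicate 3 (0.0657).

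Clec7a, the beta-glucan receptor, did not pass the test. Its 641, 725 and 701 CPM in untreated cells overlapped with 700, 684 and 641 CPM after LPS, and the log2 fold change was -0.03 ± 0.08 (edgeR adjusted p = 0.740). Clec4a3 gave -0.25 ± 0.41 (edgeR adjusted p = 0.602) on few counts. These directions hold relative to the other genes: with scaling by library totals alone, the median log2 change of all genes moved from -0.05 to -0.77. On that scale Clec4e stayed higher at 4.70, Clec12a was at 0.04 (edgeR adjusted p = 0.653), Clec4a1 at -0.24 (adjusted p = 0.122), and Clec7a and Clec4a3 were called lower at -0.75 and -0.95. Marker levels moved between the same groups. Dendritic cell markers summed to 502 to 647 CPM in untreated cells and 1123 to 1209 CPM after LPS, and all 3 measured ones rose. The 3 monocyte markers that passed the filter, of 6 listed (Ccr2, Cx3cr1 and Vcan), summed to 198 to 229 CPM and 19.6 to 24.7 CPM, and Ccr2 and Cx3cr1 fell while Vcan rose. Their part in the result was not tested.

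Of 25 listed adaptors and proximal kinases of the receptors, 19 were measured, and 9 rose and 4 fell with LPS. The share called, 68.4%, was near the 72.9% of all genes. Except for Ly75, the values printed here and below for genes of the lists are part of those the naming rule takes, picked after the values were seen. Fcer1g, the gamma chain that Mincle needs, rose by a log2 fold change of 0.64 ± 0.08, which became -0.08 with library totals alone. Malt1, the protease of the Card9 complex, went from 218 ± 23.1 to 2756 ± 359 CPM (SD, n = 3), a log2 fold change of 3.66 ± 0.12, and its partner Bcl10 rose by 1.11 ± 0.07. Card9 itself was at -0.23 ± 0.12 (edgeR adjusted p = 0.0949) and was called lower without LPS replicate 2 (-0.37) and with library totals alone (-0.95). Syk rose by 1.80 ± 0.14, on the 6.49% of its exon bases that could be counted. Tyrobp, the DAP12 partner of MDL-1, fell by 0.21 on the log2 scale (edgeR adjusted p = 0.0405), a call lost without any one of the 6 libraries except LPS replicate 2 (adjusted p 0.0704 to 0.101).

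Among 6 of 9 listed phosphatases, adaptors and ubiquitin enzymes that restrain the pathway, Tnfaip3 (5.25 ± 0.17, 9.38% of exon bases countable) and Ptpn6 rose, and Cblb (-0.85 ± 0.07) and Dok2 fell, Dok2 from 121 ± 6.50 to 30.3 ± 3.94 CPM (SD, n = 3). Ptpn6, the phosphatase recruited by DCIR and MICL, was at 0.51 ± 0.13 (17.3% countable) and at -0.21 with library totals alone. Of 11 of 16 transcription factors, 8 rose and 2 fell, with Rel at 3.35 ± 0.17, Nfkb1 at 2.93 ± 0.08 and Rela at 1.65 ± 0.08. Of 12 measured among 49 other genes with a C-type lectin domain, 7 rose and 3 fell. Cd69, an early activation marker of leukocytes, rose by 7.58 ± 0.20 and Olr1, the receptor for oxidised LDL, by 4.07 ± 0.12, while Thbd, the thrombin cofactor thrombomodulin, fell by 3.49 on the log2 scale. All 12 listed cytokines that these receptors are known to induce rose. The median log2 change was 0.20 for the adaptors, 1.65 for the transcription factors and 1.33 for the other lectin genes, against -0.05 for all genes tested.

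**Figure D2:**
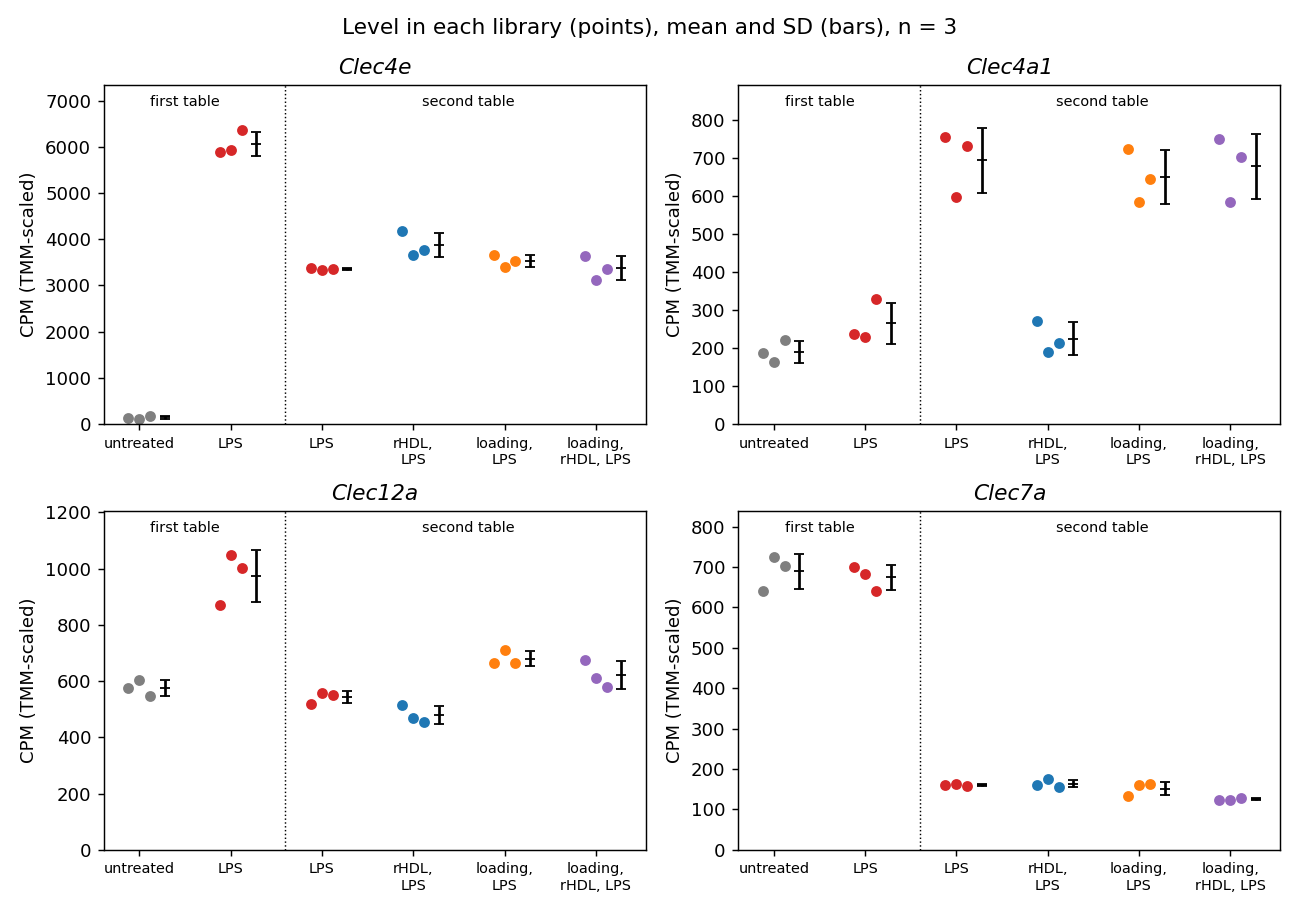
Level of the 4 measurable receptors (CPM scaled by TMM) in each library, as points, with the mean and SD of the 3 libraries of each group beside them; the dotted line divides the 2 tables, which were scaled separately. Clec4e stands out after LPS (6059 CPM against 142 CPM untreated), and Clec4a1 is low in the rHDL group (225 CPM) and high in the other groups of the second table (650 to 694 CPM).

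rHDL before LPS lowered Clec4a1 and raised Clec4e slightly. These were the called genes among the 4 receptors tested, 1 in each direction, where 36.5% of 8965 genes were called, 18.1% higher and 18.4% lower; groups did not overlap in 26.9% (higher) and 24.5% (lower). Clec4a1 had 754, 596 and 732 CPM with LPS alone and 272, 189 and 214 CPM with rHDL before LPS, with means of 694 ± 85.5 and 225 ± 42.7 CPM (SD, n = 3). The lowest library without rHDL stood well above the highest with it. The log2 fold change was -1.63 ± 0.14 (edgeR adjusted p = 6.60e-07), and the call held under all 15 alternatives tried, from -1.80 to -1.51. In the authors' deposited table of this comparison, Clec4a1 has a log2 fold change of -1.64 with an adjusted p of 1.41e-15, and it is the 1 receptor of the 9 that the table lists. That table holds 1609 rows, a part of all genes, and gives no value for the other receptors.

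Clec4e had 3377, 3328 and 3355 CPM with LPS alone and 4177, 3669 and 3774 CPM with rHDL. The groups did not overlap, but the log2 fold change was small, at 0.21 ± 0.07 (edgeR adjusted p = 0.0352). That call was lost without any one of the 6 libraries except rHDL replicate 2 (adjusted p 0.0616 to 0.171). Clec12a had 519, 559 and 549 CPM against 516, 468 and 456 CPM, just without overlap, at a log2 fold change of -0.18 ± 0.07 (edgeR adjusted p = 0.0764). Without rHDL replicate 1 it was called lower, at -0.24 (adjusted p = 0.0256), and likewise with the replicate block (0.0271). Clec7a had 161, 164 and 158 CPM against 161, 174 and 156 CPM, overlapping, at 0.03 ± 0.07 (edgeR adjusted p = 0.802).

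Around the receptors, rHDL lowered 7 and raised 4 of the 19 measured adaptors and kinases. Fgr, a Src-family kinase of myeloid cells, had 238, 180 and 216 CPM with LPS alone and 47.9, 28.3 and 33.9 CPM with rHDL. This was a log2 fold change of -2.52 ± 0.18 (edgeR adjusted p = 1.61e-07), larger in size than that of Clec4a1. Pik3ap1, an adaptor that links receptors to PI3 kinase, fell by 0.76 on the log2 scale. Plcg2, the phospholipase below Syk, rose by 0.46 ± 0.08, Vav3 by 0.29 ± 0.07 (42.5% countable) and Card9 by 0.37 ± 0.13. The call of Card9 was lost without LPS replicates 1 or 3 or rHDL replicates 1 or 2 (adjusted p 0.0614 to 0.167). The direct partners did not pass the test: Fcer1g was at -0.13 ± 0.08, Tyrobp at -0.05 ± 0.10 and Syk at 0.02 ± 0.17 (edgeR adjusted p = 0.260, 0.754 and 0.951). With library totals alone Tyrobp was at 0.07.

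Of the 6 measured inhibitors, 5 fell and none rose, among them Dok2 (-0.82 ± 0.11), Ptpn6 (-0.56 ± 0.11), Cblb (-0.51 ± 0.10) and Dusp1 (-0.41 ± 0.08). The median log2 change of these 6 was -0.46, against 0.03 for all genes tested. Of 11 transcription factors, 4 fell and 1 rose. Irf8, a factor of myeloid differentiation, had 516, 339 and 394 CPM with LPS alone and 210, 153 and 166 CPM with rHDL, a log2 fold change of -1.24 ± 0.17. Spi1 (PU.1) fell by 0.38 on the log2 scale, and Egr2, an early growth response factor, rose by 0.95 ± 0.13.

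Of 14 other lectin genes measured, 10 fell and 1 rose, with a median of -0.55. Selp, the adhesion molecule P-selectin, had 33.3, 24.4 and 26.9 CPM with LPS alone and 1.07, 1.81 and 1.51 CPM with rHDL. Its log2 fold change of -4.27 ± 0.21 (edgeR adjusted p = 6.34e-09) was the most negative of these 14. Sele (E-selectin), at 5.64, 5.54 and 6.87 CPM with LPS alone, fell too (edgeR adjusted p = 4.60e-06). Pla2r1, a receptor of secreted phospholipase, fell by 1.91 and Mgl2, a galactose-binding macrophage lectin, by 0.90 on the log2 scale, while Ly75 (DEC-205) rose by 0.77 ± 0.18. Of the 12 cytokines, 9 rose and 1, Il10, fell. Marker levels moved with these results. Macrophage markers summed to 17926 to 19544 CPM with LPS alone and to 9397 to 11779 CPM with rHDL, and 5 of 7 measured ones fell while 1, Cd68, rose. The same 3 monocyte markers summed to 14.8 to 19.8 CPM with LPS alone and 2.48 to 3.48 CPM with rHDL, and Ccr2 and Vcan fell. Neutrophil markers summed to 13.1 to 16.0 and 3.24 to 5.15 CPM, with Mpo, Elane, Cxcr2 and Retnlg at 0 in both groups. S100a9 was at 0 too, but it has only 0.573% of its exon bases to itself. The part of these markers in the result was not tested, and in bulk RNA fewer cells of a type and less RNA per cell cannot be told apart.

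After cholesterol loading, rHDL changed none of the 4 receptors by the edgeR test, where 1.02% of all genes were called, 0.424% higher and 0.591% lower, and groups did not overlap in 7.23% (higher) and 8.1% (lower). At an unadjusted p under 0.05 there was 1 receptor, Clec7a, and 1044 of the 8965 genes, and DESeq2 called none of the 4. Clec4a1 had 722, 583 and 644 CPM with loading and LPS and 748, 583 and 702 CPM when rHDL came in between. The groups overlapped, and the log2 fold change was 0.06 ± 0.13 (edgeR adjusted p = 0.898). Clec4e had 3652, 3407 and 3521 CPM against 3635, 3122 and 3348 CPM, at -0.07 ± 0.07 (edgeR adjusted p = 0.777). Clec12a had 663, 712 and 666 CPM against 676, 612 and 579 CPM, at -0.13 ± 0.07 (edgeR adjusted p = 0.532). Both overlapped.

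Clec7a was the exception in its order of libraries. Its 133, 159 and 162 CPM with loading all lay above 124, 124 and 128 CPM with loading and rHDL. The log2 fold change was -0.27 ± 0.08 with an edgeR adjusted p of 0.124, and the gene was called lower without loading replicate 1 (-0.35, adjusted p = 0.0436) or with the replicate block (0.0226). None of the adaptors, inhibitors, transcription factors, other lectin genes or cytokines measured passed the test after loading. The authors' deposited table of this comparison holds only 47 rows and lists none of the 9 receptors, so it gives no value for them.

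**Figure D3:**
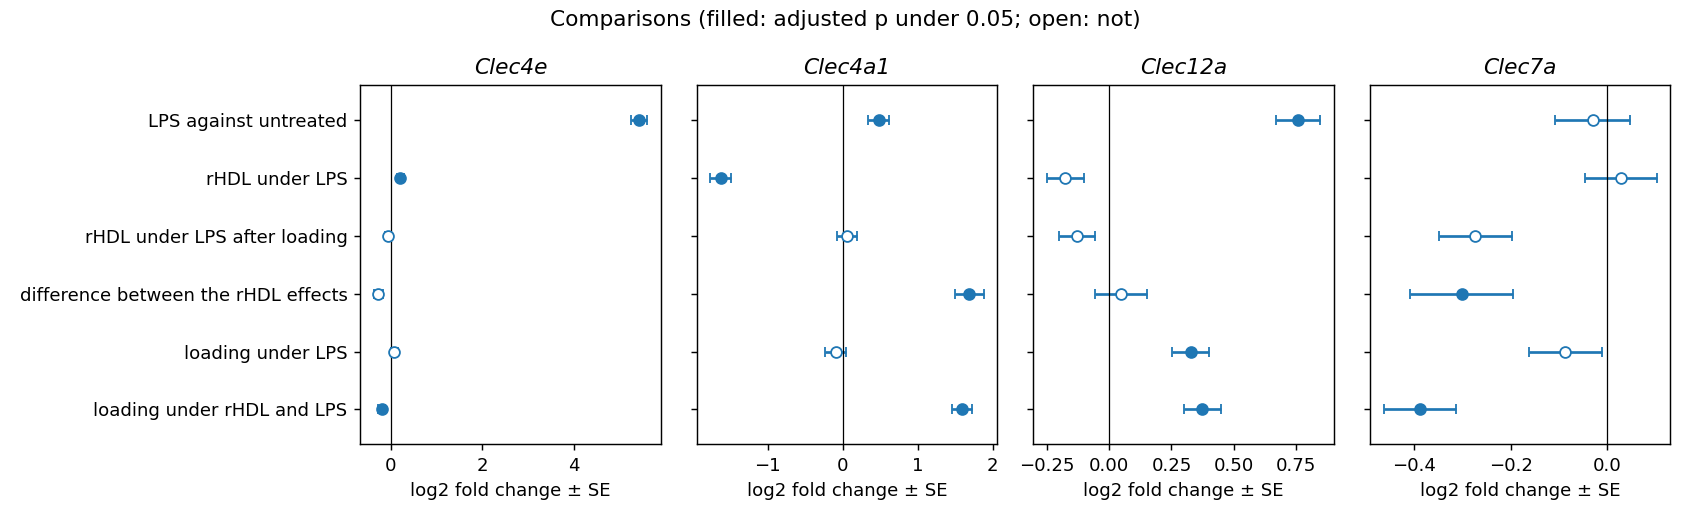
Log2 fold change (points) with its standard error (bars) of the 4 measurable receptors in the 6 comparisons, filled where the edgeR adjusted p was under 0.05; each panel has its own scale. Clec4a1 was at -1.63 with rHDL and at 0.06 with rHDL after loading, and the difference between these, 1.69, was filled too.

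The difference between the rHDL effects with and without loading was tested as an interaction, in which 30.2% of all genes were called, 16% positive and 14.2% negative. It uses the libraries of both rHDL comparisons. Clec4a1 was called in the positive direction, with a difference of 1.69 ± 0.19 on the log2 scale (edgeR adjusted p = 2.32e-05), and kept its call under all 20 alternatives (1.51 to 1.86). Clec7a was called in the negative direction at -0.30 ± 0.11 (edgeR adjusted p = 0.0451). This call was lost without any one of 10 of the 12 libraries (adjusted p 0.0608 to 0.136), and it held only without rHDL replicate 3 or loading replicate 1. It was also lost with DESeq2 (0.0607). Clec4e was at -0.27 ± 0.10 (edgeR adjusted p = 0.0559), and was called with the replicate block (0.00448), with library totals alone (0.000775) and without loading plus rHDL replicate 1 (0.0172). Clec12a was at 0.05 ± 0.10 (adjusted p = 0.771).

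Of the 19 adaptors and kinases, 6 had a positive and 3 a negative difference, with Fgr at 2.57 ± 0.25 and Pik3ap1 at 0.79 ± 0.11. Of the 6 inhibitors 5 were positive, including Ptpn6 (0.89 ± 0.15), Dok2 (0.75 ± 0.15) and Dusp1 (0.64 ± 0.11). Irf8 (1.33 ± 0.24) and Spi1 (0.49 ± 0.10) were among 5 positive transcription factors, and Egr2 (-1.09 ± 0.19) was the 1 negative. Of the 14 other lectin genes 9 were positive, among them Selp (4.08 ± 0.29), Pla2r1 (2.36 ± 0.37) and Sele (1.72 ± 0.28), and none was negative. The median difference was 0.57 for the inhibitors and 0.74 for the other lectin genes, against -0.03 for all genes.

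**Figure D4:**
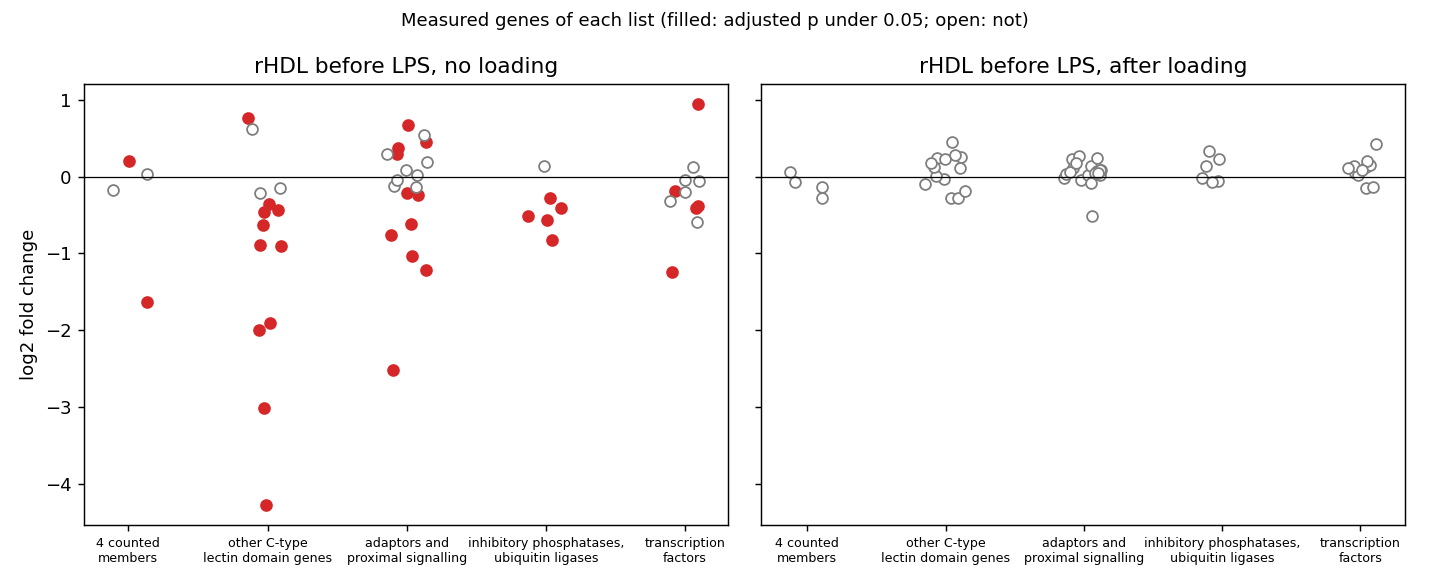
Log2 fold change of rHDL before LPS without loading (left) and after loading (right), 1 point per measured gene, for the 4 receptors, other C-type lectin domain genes, adaptors, inhibitors and transcription factors; filled points had an edgeR adjusted p under 0.05. Without loading the points reach down to -4.27 (Selp), and after loading every point is open.

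Loading without rHDL raised 1 of the 4 receptors, Clec12a, where 8.57% of all genes were called, 3.99% higher and 4.57% lower; groups did not overlap in 16.8% (higher) and 16.1% (lower). Clec12a had 519, 559 and 549 CPM with LPS alone and 663, 712 and 666 CPM with loading, without overlap, at a log2 fold change of 0.33 ± 0.07 (edgeR adjusted p = 0.0142). The call was lost without LPS replicate 1 (0.0771), LPS replicate 3 (0.0505) or loading replicate 2 (0.0733). Clec4a1 was at -0.09 ± 0.13, Clec7a at -0.09 ± 0.08 and Clec4e at 0.07 ± 0.07 (edgeR adjusted p = 0.727, 0.533 and 0.593).

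With loading alone, 3 of the 14 other lectin genes, 3 of the 6 inhibitors, 1 of the 19 adaptors and 1 of the 11 transcription factors were called, shares of 21.4%, 50%, 5.26% and 9.09% against 8.57% of all genes. Among the other lectin genes Selp fell by 1.52, Olr1 by 0.73 and Mgl2 by 0.92 on the log2 scale. Selp went from 28.2 ± 4.58 to 9.77 ± 2.03 CPM (SD, n = 3). Among the inhibitors Dok2 rose by 0.51 ± 0.10, and Dusp1 and Tnfaip3 each fell by 0.40 on the log2 scale. Vav3 was the 1 adaptor called (-0.26 ± 0.07) and Rela the 1 transcription factor (-0.29 ± 0.06). Leaving out 1 library removed the call of Vav3 in 5 of 6 cases (adjusted p 0.0563 to 0.137), of Tnfaip3 in 4 (0.0615 to 0.0958), of Mgl2 without loading replicates 1 or 2 (0.0550 and 0.0627) and of Rela without LPS replicate 1 or loading replicate 2 (0.0600 and 0.0571).

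In cells given rHDL and LPS, loading changed all 4 receptors, 2 higher and 2 lower, where 35.6% of all genes were called, 18.5% higher and 17.1% lower. This comparison shares its libraries with the rHDL comparisons. Clec4a1 had 272, 189 and 214 CPM without loading and 748, 583 and 702 CPM with it, a log2 fold change of 1.59 ± 0.14 (edgeR adjusted p = 7.64e-07) that held under all 15 alternatives. Clec12a rose from 480 ± 32.2 to 622 ± 49.6 CPM (SD, n = 3), at 0.37 ± 0.07 (edgeR adjusted p = 0.00109). Clec7a fell from 164 ± 9.36 to 125 ± 2.09 CPM (SD, n = 3), at -0.39 ± 0.08 (edgeR adjusted p = 0.000984). Clec4e fell from 3873 ± 268 to 3369 ± 257 CPM (SD, n = 3), at -0.20 ± 0.07 (edgeR adjusted p = 0.0417). The groups did not overlap for any of the 4, against 21.6% of all genes higher and 21.6% lower without overlap. The call of Clec4e was lost without rHDL replicates 1 or 3 or loading plus rHDL replicates 2 or 3 (adjusted p 0.0712 to 0.194).

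Among the partners, 6 of 19 adaptors and kinases rose and 3 fell. Fgr rose by 2.23 ± 0.18 and Pik3ap1 by 0.73 ± 0.08, and Vav3 fell by 0.44 on the log2 scale. Of the 6 inhibitors, 4 rose, with Dok2 at 1.26 ± 0.10. Of the 11 transcription factors 4 were called, a share of 36.4%, near the 35.6% of all genes. Irf8 (1.13 ± 0.17), Spi1 (0.60 ± 0.07) and Egr1 (0.67 ± 0.18) rose, and Egr2 fell by 0.93 on the log2 scale. Of the 14 other lectin genes, 8 rose and 1, Ly75, fell, with Selp at 2.57 ± 0.23, Pla2r1 at 2.11 ± 0.27, Sele at 1.39 ± 0.22 and Layn at 1.05 ± 0.15. Macrophage markers summed to 15024 to 18899 CPM with loading and rHDL and the 3 monocyte markers to 12.3 to 13.7 CPM, and their part in the result was not tested.

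Per kilobase of exon, the order of the 4 receptors differed between groups. In untreated cells Clec7a had the highest level, at 303 ± 19.0 CPM per kb, followed by Clec12a (259 ± 12.8), Clec4a1 (122 ± 18.6) and Clec4e (56.3 ± 14.4; SD, n = 3 for each). No neighbours in that order overlapped. After LPS in the first table Clec4e led at 2405 ± 103, then Clec12a at 438 ± 41.8, Clec7a at 296 ± 13.6 and Clec4a1 at 170 ± 34.9 CPM per kb, again without overlap.

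In the second table Clec4e led in every group, with means from 1331 to 1538 CPM per kb, and Clec7a was last, with 70.6 ± 1.34 for LPS alone and 55.0 ± 0.919 CPM per kb for loading and rHDL. With LPS alone Clec4a1 (446 ± 54.9) came before Clec12a (244 ± 9.43), and with rHDL Clec12a (216 ± 14.5) came before Clec4a1 (144 ± 27.4 CPM per kb). With loading, and with loading and rHDL, Clec4a1 was again second, at 417 ± 44.9 and 435 ± 54.9 CPM per kb. The libraries of Clec4a1 and Clec12a did not overlap in any group of the second table.

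The LPS groups of the 2 tables had unlike levels. Clec7a had 675 ± 30.9 CPM in the first and 161 ± 3.04 CPM in the second (SD, n = 3), and Clec4a1 had 265 ± 54.4 and 694 ± 85.5 CPM. Clec4e had 6059 ± 260 and 3353 ± 24.4 CPM, and Clec12a 973 ± 93.0 and 542 ± 21.0 CPM. Of the list genes, Fgr had 28.7 ± 1.82 and 211 ± 29.7 CPM and Selp 0.389 ± 0.049 and 28.2 ± 4.58 CPM. Tyrobp was closer, at 655 ± 65.2 and 567 ± 21.1 CPM. With rHDL, Fgr was at 36.7 ± 10.1 CPM. The tables were scaled and fitted separately, so these differences were not tested.

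The genes whose changes were most like those of each receptor were ranked among 5716 genes by the root mean square difference over 4 log2 fold changes (LPS, rHDL, rHDL after loading, loading). They were Ly86 (0.096), Fcgr4 (0.147) and Fmn1 (0.153) for Clec4a1, and Mycl (0.080), Icam1 (0.156) and Bcl2a1d (0.184) for Clec4e. For Clec7a they were Wwc2 (0.039), Crebzf (0.041) and Dock2 (0.049), and for Clec12a Eme2 (0.060), Esrra (0.064) and Ticam2 (0.070). Ly86, which encodes the MD-1 partner of the TLR-like protein RP105, had log2 fold changes of 0.35 with LPS, -1.70 with rHDL, 0.04 with rHDL after loading and -0.22 with loading. Fcgr4, an Fc receptor that signals through Fcer1g, had 0.50, -1.67, 0.32 and -0.23 in the same order. The changes in the second table share libraries, and the ranking is a description.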

How the data were processed

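RNA-seq of 18 libraries was deposited by the authors as 2 tables of raw read counts, 6 libraries in the first and 12 in the second, with 32850 rows and 24059 symbols each. Per the labels, RNA was poly-dT selected, and per the submitters' processing notes cutadapt, HISAT2, Subread, featureCounts, DESeq2 and mm10 were used, with no version named. From the authors' deposited comparison tables, made from their normalised data, come a log2 fold change, an adjusted p-value and a ratio of RPKM values.

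Rows were summed per symbol, filtered with filterByExpr (minimum count 10) and scaled by TMM in edgeR 4.0.16 (R 4.3.3). 2-sided quasi-likelihood F tests compared groups, each table in its own fit and the 12 libraries of the second in 1, with p adjusted by Benjamini-Hochberg over 9576 and 8965 genes and called under 0.05. Errors are the SE for log2 changes and the SD for levels. Fits were tested on simulated counts.

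The receptors and the gene lists were chosen with earlier results of these data known. Genes named are the receptors, Fcer1g, Tyrobp, Syk and Card9, and from each list up to 4 of smallest p in each comparison. The 3 most alike genes for each receptor (mean log2 CPM of at least 3) are named too. Ly75 and Il10 were outside the rule of smallest p. With rHDL each was the only called gene of its list in its direction. The cell type markers were named after their values were seen.

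Alternatives were DESeq2 1.42.0, other scalings, low-count filters, a 1.5-fold minimum, 2 groups alone, the replicate block and leaving out each library. Replicates of the rHDL group and of the loading plus rHDL group deviated together (r from 0.177 to 0.436 over genes, in all 3 pairs). The labels give only replicate numbers, so any pairing is read from the data. The main tests, and all errors and p-values from them, took no account of this shared deviation. The replicate block, run only as an alternative, took it in and changed no receptor's call between those groups. No pair of libraries of a group agreed within sampling noise. Amino acid sequences were not used here. 1 gene of the marker lists is not reported here.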

Additional observations from a re-analysis of the deposited data

Results flagged for a closer look

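The rHDL effect on Clec4a1 differed between unloaded and loaded cells by 1.69 on the log2 scale (edgeR interaction test, adjusted p = 2.32e-05). Clec4a1 was at -1.63 without loading, lower in all 3 rHDL libraries than in any of the 3 LPS libraries, and at 0.06 after loading.

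The rHDL effect on Clec7a also differed, by -0.30 (edgeR interaction test, adjusted p = 0.0451), with 0.03 without loading and -0.27 after loading. The effects were small and neither passed the test alone, and leaving out any one of 10 of the 12 libraries ended the call of the difference (adjusted p 0.0608 to 0.136).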

How the results depend on the processing

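Over the receptors, 330 of the alternative values kept direction and side of the threshold, 39 lost a call, 9 gained one and 11 changed sign. Over the named pathway genes, counted separately, 1036 kept both, 62 lost a call, 2 gained one and 6 changed sign. The values that changed sign lay near 0 or came from scaling by library totals alone. With those totals and LPS, Clec4a1 was at -0.24, Fcer1g at -0.080 and Ptpn6 at -0.21; with rHDL Tyrobp was at 0.069, and the rHDL difference of Clec12a was -0.12. With LPS Clec7a was at 0.012 with DESeq2 and at 0.012 with its size factors. Leaving out 1 library at a time moved Clec7a with LPS between -0.084 and 0.0059 (0.0035 without untreated replicate 2, 0.0059 without LPS replicate 3), and Clec4a3 with LPS between -0.68 and 0.062 (without LPS replicate 2). With rHDL it moved Syk between -0.095 and 0.16, below 0 without LPS replicate 3 (-0.015) or rHDL replicates 2 or 3 (-0.095 and -0.039), and Clec7a between -0.023 (without rHDL replicate 2) and 0.062. After loading it moved Clec4a1 between -0.013 (without loading plus rHDL replicate 1) and 0.16, with -0.0078 without loading replicate 2, and the difference of Clec12a between -0.014 (without the same replicate 1) and 0.12. The cause of these changes was not tested.

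Library totals alone left 1 receptor higher and 2 lower with LPS and 2 lower in the difference, and called 1532 genes higher and 6640 lower with LPS (3380 and 3605 with TMM), 2507 higher with rHDL (1621 with TMM), 25 higher with rHDL after loading (38), 2124 lower in the difference (1272), and 626 higher and 254 lower with loading (358 and 410). The median log2 change of all genes moved from 0.03 to 0.14 with rHDL, from -0.03 to -0.20 in the difference and from -0.01 to -0.10 with loading under rHDL. A 1.5-fold minimum called 1906 higher and 2138 lower with LPS, 226 and 432 with rHDL, 1 and 4 after loading, 395 and 197 in the difference, 9 and 23 with loading, and 415 and 266 with loading under rHDL. With it, 0 receptors were higher with rHDL, 0 lower in the difference and 0 higher with loading, and 1 was higher and 0 lower with loading under rHDL. After loading, DESeq2 called 94 genes higher and 83 lower with rHDL, no filter 90 and 86, and the fit of 2 groups 19 and 23. That fit called 691 genes lower with loading. That fit, size factors and no filter each left 1 receptor lower with loading under rHDL. Size factors left 0 receptors higher with rHDL. In the difference, 0 receptors were lower with DESeq2, size factors or no filter.

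With the replicate block, 277 genes were higher and 209 lower with rHDL after loading (38 and 53 without), 717 and 934 with loading (358 and 410), and 2 receptors were lower with rHDL, 1 after loading and 2 in the difference. For the other groups of the second table the numbers met the rule for pairs (every correlation over 0.1) in no comparison, but 10 of 15 same-number correlations were over 0.1 (-0.030 to 0.344, median 0.177), against 3 of 30 between unlike numbers (median -0.082), and 4 to 6 of the 6 libraries of each 2 groups correlated best with their own number. Deviations from a group's mean sum to 0 over its 3 libraries, so positive same-number correlations force those between unlike numbers down. The contrast and the best-match counts are therefore not separate support. The same-number correlations are a hint from the data, not the design. In the first table they ran from -0.077 to 0.074.

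Leaving out 1 library at a time gave 0 to 1 receptors higher and 1 to 2 lower with rHDL, 0 to 1 lower after loading, 0 to 1 lower in the difference, 0 to 1 higher with loading, and 1 to 2 lower with loading under rHDL. It gave 10 to 68 genes higher and 20 to 55 lower with rHDL after loading, and 158 to 245 higher and 189 to 349 lower with loading. Of the 3 most alike genes, all were kept with size factors, library totals and the block, alternatives chosen after seeing the data, except that Clec4e kept 2 with the block. For Clec4a2, Clec4a3, Clec4d, Clec4n and Clec5a, low expression and reads lost to overlapping rows cannot be told apart.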
